A study of Mus musculus with 25 samples.

Results

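The genes described here encode the enzymes of glycolysis and of the citric acid cycle, with the lactate dehydrogenases and the proteins that bring pyruvate into the mitochondrion. They were chosen by name, as 34 gene symbols, and matched 35 of the 54532 rows of the deposited gene table, since the symbol Aldoa stands on 2 rows. All 35 rows reached 0.5 FPKM in at least 5 libraries and were among the 16450 genes tested. FPKM is the number of sequenced fragments scaled by gene length and by library size. Levels set side by side between genes therefore depend on the length listed for each gene. For example, Eno1 is listed at 5379 bp and Eno1b at 1757 bp, although they match over 1736 bp. By role, 10 rows belong to upper glycolysis, from hexokinase to triosephosphate isomerase, 7 to lower glycolysis, from Gapdh to pyruvate kinase, 2 to lactate dehydrogenase, 4 to pyruvate entry and 12 to the citric acid cycle. Counted among these 12 is Mdh1, the malate dehydrogenase of the cytosol.

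RNA sequencing was run on cortical tissue of 25 mice, in 5 groups of 5 separate animals. The 5xFAD groups (labelled AD) received vehicle (AD_Veh), low P (AD_LowP) or high P (AD_HighP), and the wild-type groups (labelled WT) received high P (WT_HighP) or vehicle (WT_Veh). P is a derivative of a natural product, and neither what it is, nor its doses and duration, nor the age of the mice, is stated in the labels or the series' design text. 5xFAD is a transgenic line in which mutant human amyloid precursor protein and presenilin are driven by neuronal Thy1 sequences, so all 3 AD groups carry the transgenes and model amyloid build-up alone. The comparisons ask how the genotype alters cortical gene expression and how P alters it in each genotype.

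Glycolysis turns glucose into pyruvate in the cytosol, and its irreversible steps are those of hexokinase, phosphofructokinase and pyruvate kinase. Lactate dehydrogenase exchanges pyruvate with lactate, and the pyruvate carrier and pyruvate dehydrogenase feed pyruvate to the citric acid cycle, which oxidises it in the mitochondrial matrix. Glucose burnt by these routes is the main fuel of the brain; astrocytes are held to rely more on glycolysis than neurons, and activated microglia are known to raise glycolysis.

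Libraries held 15518358 to 17698222 assigned reads. Thy1 stood at 458 ± 78 FPKM in AD_Veh and 155 ± 15.6 in WT_Veh (SD, n = 5 each), without overlap. Each group held 3 males and 2 females, read from Xist and Y-linked genes. All 12 neuron markers examined were above 0 in each library. The choroid plexus gene Ttr was over 5 times the median of all libraries in 5 of them, which were 2 of AD_HighP, 2 of WT_HighP and 1 of WT_Veh. The slope of log2 values on transcript GC content, per 10 percentage points, was 0.173 ± 0.0496 in WT_HighP and -0.150 ± 0.148 in WT_Veh (SD, n = 5 each), and the slopes of these 2 groups did not overlap. It was -0.0421 ± 0.144 in AD_Veh, -0.0443 ± 0.222 in AD_LowP and 0.0641 ± 0.0994 in AD_HighP.

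Promoters are shown for Hk2, the single member called between genotypes, and for Pgam1, one of the members that rose together under high P in wild-type mice. Each is given as the 250 bases upstream of the transcription start in RefSeq's promoter table (GRCm38.p6), with capitals for ACGTG or its reverse complement CACGT, the core letters bound by hypoxia-inducible factors, which are known to drive many glycolytic genes. The Hk2 stretch lies on chr6:82774455-82774704 on the minus strand and the Pgam1 stretch on chr19:41911621-41911870 on the plus strand.
Hk2: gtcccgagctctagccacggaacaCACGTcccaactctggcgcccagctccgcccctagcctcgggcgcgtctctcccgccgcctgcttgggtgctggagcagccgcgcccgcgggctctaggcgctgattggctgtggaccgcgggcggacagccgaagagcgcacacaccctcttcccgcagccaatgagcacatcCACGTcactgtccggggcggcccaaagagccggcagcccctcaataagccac
Pgam1: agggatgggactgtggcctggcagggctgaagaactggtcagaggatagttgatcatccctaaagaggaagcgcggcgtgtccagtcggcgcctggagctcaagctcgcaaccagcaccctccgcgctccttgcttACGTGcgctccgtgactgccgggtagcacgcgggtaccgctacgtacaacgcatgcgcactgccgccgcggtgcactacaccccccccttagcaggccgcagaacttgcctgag
The Hk2 stretch holds 2 matches and the Pgam1 stretch 1. The corresponding stretches of Pfkl and Idh3b, the other members called higher under high P in wild-type mice, hold 0. The letters occur on either strand in 18 of the 49 promoters listed for members (36.73%), which belong to 11 of the 32 symbols matched, and in 16.57% of all 32851 promoters of this length in the table. Several promoters of 1 gene overlap, so these 49 are not independent, and a match of letters is not a binding site. The share by symbol over the whole promoter table is not given here, so the 11 of 32 stand without a background. Whether the letters act on these genes was not tested. The GGGCGG box of Sp1 was found in 48.98% of the members' promoters and in 32.74% of all, with 3 matches in Hk2 and 0 in Pgam1.

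Mean levels over the 25 libraries ran from 1.15 FPKM for Hk2 to 410 FPKM for Aldoa, and 10 of the 35 rows averaged over 100 FPKM. Aldolase splits the phosphorylated sugar into trioses, and the Aldoa value is that of its main row (ENSMUSG00000030695). Malate dehydrogenase of the cytosol (Mdh1, 240 FPKM), the heart-type lactate dehydrogenase subunit Ldhb (231 FPKM) and pyruvate kinase Pkm (208 FPKM) followed, ahead of Aldoc, the aldolase typical of astrocytes, at 202 FPKM. The rows counted to the citric acid cycle, other than the cytosolic Mdh1, lay between 11.8 FPKM for Dlst and 65.4 FPKM for Mdh2. Dlst is the succinyltransferase of the 2-oxoglutarate dehydrogenase complex, and Mdh2 is the matrix malate dehydrogenase.

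**Figure D1:**
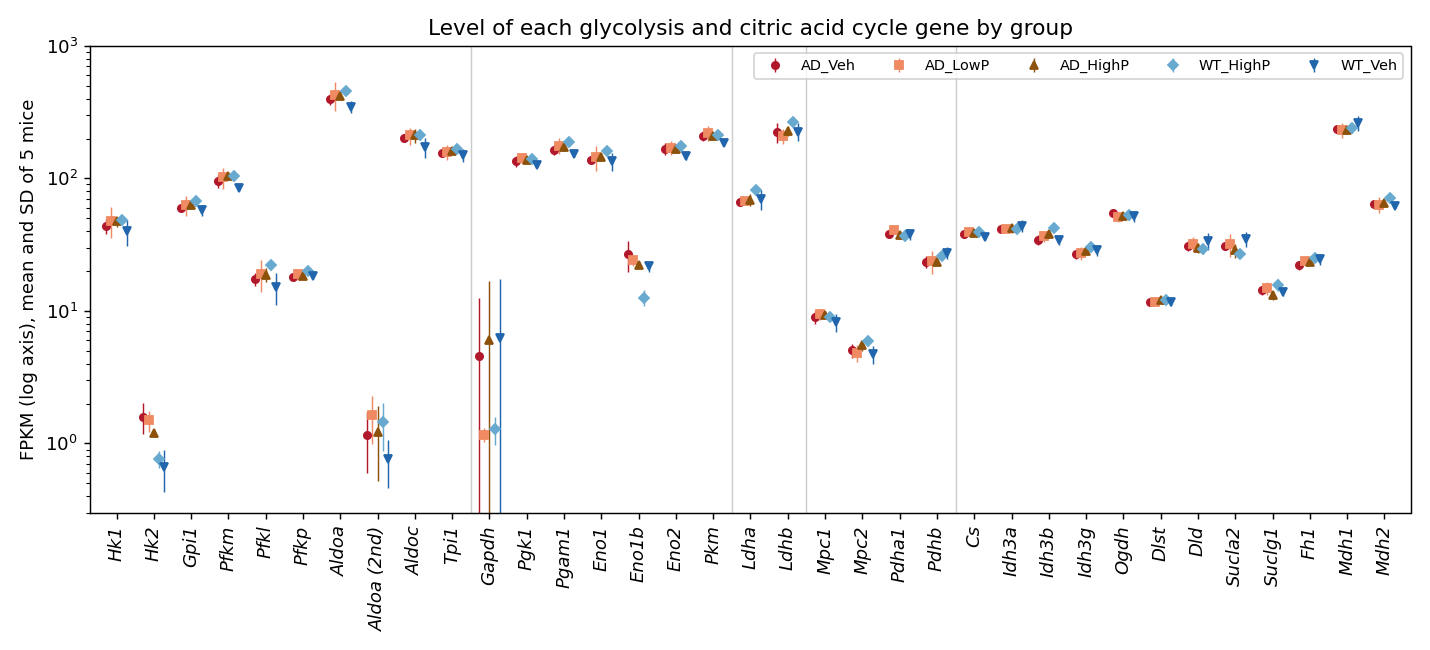
Mean FPKM (log axis) of the 35 rows in the 5 groups of 5 mice, with bars of 1 SD; a lower bar that would reach 0 runs off the axis. Grey lines part upper glycolysis, lower glycolysis, lactate dehydrogenase, pyruvate entry and the citric acid cycle. The Hk2 means of the 3 AD groups lie above those of the 2 WT groups, and the Eno1b mean is lowest in WT_HighP.

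In the hexokinase, phosphofructokinase and lactate dehydrogenase families, 1 form made up most of the summed FPKM. Hk1, the hexokinase of neurons and of most cells, held a median of 97.6% of the hexokinase level of Hk1 and Hk2 over the 25 libraries. Pfkm held 72.8% of phosphofructokinase and Ldhb 76.8% of lactate dehydrogenase. These shares depend on the listed gene lengths, which were 3340 bp for Pfkm, 6675 bp for Pfkl and 13401 bp for Pfkp. They were 1570 bp for Ldhb and 3310 bp for Ldha. Median reads per library were 5594 for Pfkm, 2093 for Pfkl and 4194 for Pfkp, and 6227 for Ldhb and 3964 for Ldha. By reads the lead of Pfkm and of Ldhb was smaller. Among enolases the neuronal form Eno2 held 50.0% and the widespread form Eno1 42.8%, so none held a clear majority. The Ldha share, the subunit known to favour lactate formation, was 23.3 ± 2.78% in AD_Veh, 24.7 ± 3.53% in AD_LowP and 23.2 ± 2.36% in AD_HighP mice, and it was 23.4 ± 2.28% in WT_HighP and 24.02 ± 5.97% in WT_Veh (SD, n = 5 each). These means differed by less than the SD of each group.

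In AD_Veh against WT_Veh, Hk2 rose and no other member passed the test. Of the 35 rows, 1 was called higher and 0 lower (2.86%), where 3.1% of all tested genes were called (2.83% higher and 0.274% lower), so the share of members was near that background. The median log2 fold change of the members was 0.05, against -0.02 over all tested genes. At an unadjusted p under 0.05 stood 6 members in all, namely Hk2, Aldoc, Eno2 and Pkm with higher means and Pdhb and Fh1 with lower means. By role the median log2 fold change was 0.18 in upper glycolysis, 0.09 in lower glycolysis, -0.03 for lactate dehydrogenase, 0.05 for pyruvate entry and -0.04 in the citric acid cycle. After correction of each library for GC content, upper glycolysis had a median of 0.09 and lower glycolysis 0.06.

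Hk2 encodes hexokinase 2, an inducible form that binds mitochondria and in the brain is known to be most abundant in microglia. The gene (ENSMUSG00000000628) lies on chr6:82725025-82774454 of mm10 on the minus strand, and 42 to 185 reads per library fell on it. Its level was 1.57, 1.74, 1.88, 1.89 and 0.900 FPKM in the AD_Veh mice, against 0.975, 0.455, 0.672, 0.416 and 0.782 FPKM in the WT_Veh mice. Of the AD_Veh mice, 4 lay above all WT_Veh mice and the fifth lay between 2 of them, so the groups overlapped by that mouse. The log2 fold change was 0.85 (SE 0.15, adjusted p = 0.000555).

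The other groups followed genotype for Hk2. It stood at 1.30, 1.19, 1.87, 1.62 and 1.52 FPKM in AD_LowP and at 1.29, 1.17, 1.28, 1.17 and 1.10 FPKM in AD_HighP. The WT_HighP mice had 0.900, 0.865, 0.749, 0.620 and 0.708 FPKM. Of the 15 AD mice, 14 were above the highest of the 10 WT mice. The Hk2 share of the 2 hexokinases was 3.51 ± 0.784% in AD_Veh and 1.63 ± 0.420% in WT_Veh, while it reached 3.11 ± 0.460% under low P and 2.49 ± 0.235% under high P in AD mice and 1.58 ± 0.286% in WT_HighP (SD, n = 5 each). No near-identical copy of Hk2 was found elsewhere in the transcript set.

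Markers of microglia moved with Hk2. Of 13 such markers, 10 were called higher in AD_Veh and 0 lower, and their summed level was 549 to 784 FPKM in AD_Veh, against 171 to 252 in WT_Veh. It was 474 to 680 FPKM in AD_LowP, 473 to 670 in AD_HighP and 192 to 276 in WT_HighP, and no marker of the list was at 0 in any library. Of 10 astrocyte markers 2 were called higher, with sums of 707 to 985 FPKM in AD_Veh against 461 to 517 in WT_Veh. The median log2 fold change of the astrocyte markers was 0.03, with 5 positive and 5 negative, and the sums include Gfap, which stood at 253 to 469 FPKM in AD_Veh against 17.9 to 34.8 in WT_Veh. Of 9 oligodendrocyte markers 0 were called and 9 were positive (median log2 fold change 0.42, sums of 751 to 1444 FPKM in AD_Veh against 475 to 1058 in WT_Veh). Of 4 tested red blood cell markers 0 were called and 4 were positive (median log2 fold change 0.89, sums of 2.49 to 46.1 FPKM in AD_Veh against 2.47 to 20.1 in WT_Veh). The part of these cells in the Hk2 result was not tested. In bulk tissue, more cells of a type and more RNA per cell cannot be told apart.

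**Figure D2:**
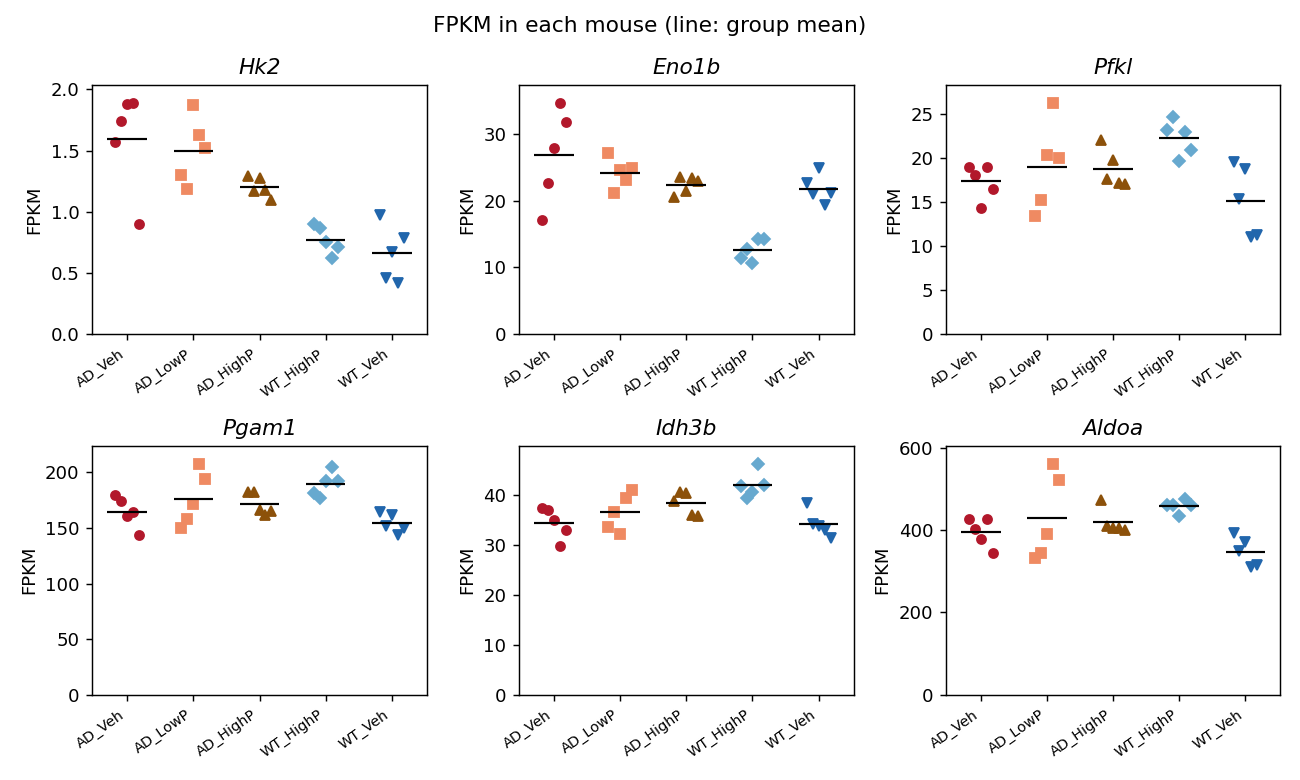
FPKM of 6 members in each of the 25 mice, with the group mean as a line and the axis starting at 0. For Hk2, 4 of the 5 AD_Veh mice lie above all WT_Veh mice; Eno1b is lower in all WT_HighP mice than in all WT_Veh mice, and Pfkl, Pgam1, Idh3b and Aldoa are higher there without overlap.

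Pkm was the only member whose AD_Veh and WT_Veh values did not overlap, where 3.84% of all tested genes did not overlap in this comparison (3.02% higher and 0.821% lower). It is named because of that value. It had 213, 211, 203, 235 and 189 FPKM in AD_Veh, against 185, 186, 184, 188 and 183 FPKM in WT_Veh. The lowest AD_Veh mouse was just above the highest WT_Veh mouse. The log2 fold change of 0.18 (SE 0.07) gave an adjusted p of 0.330 and was not called. Pdhb, the beta subunit of pyruvate dehydrogenase, averaged 23.4 ± 2.38 FPKM in AD_Veh and 27.5 ± 2.94 in WT_Veh (SD, n = 5 each; log2 fold change -0.23, adjusted p = 0.421). Fh1, the fumarase, averaged 22.2 ± 1.66 FPKM in AD_Veh and 24.6 ± 2.46 in WT_Veh (log2 fold change -0.15, adjusted p = 0.436).

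Of 86 other tested genes of the wider pathway (glucose carriers, further isoforms, glycogen, pentose phosphate, lactate transport, shuttles, regulators), 3 were higher in AD_Veh and 0 lower. Over all tested genes 3.1% were called in this comparison (2.83% higher and 0.274% lower). Hk3, a hexokinase known from leukocytes, had 0.887, 1.02, 0.814, 1.01 and 0.801 FPKM in AD_Veh, against 0.261, 0.246, 0.464, 0.161 and 0.0658 FPKM in WT_Veh, without overlap (log2 fold change 0.95, SE 0.16, adjusted p = 0.000543). Slc16a3, a lactate exporter, averaged 0.934 ± 0.237 FPKM in AD_Veh and 0.362 ± 0.147 in WT_Veh (log2 fold change 0.73, SE 0.16, adjusted p = 0.00562). Acly, which makes cytosolic acetyl-CoA from citrate, averaged 45.3 ± 2.76 FPKM in AD_Veh and 36.7 ± 4.14 in WT_Veh (SD, n = 5 each; log2 fold change 0.31, SE 0.08, adjusted p = 0.0435). Hk3 and Slc16a3 lie near 1 FPKM, where the fold change on this scale understates the change, and the microglial markers given above moved with them.

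**Figure D3:**
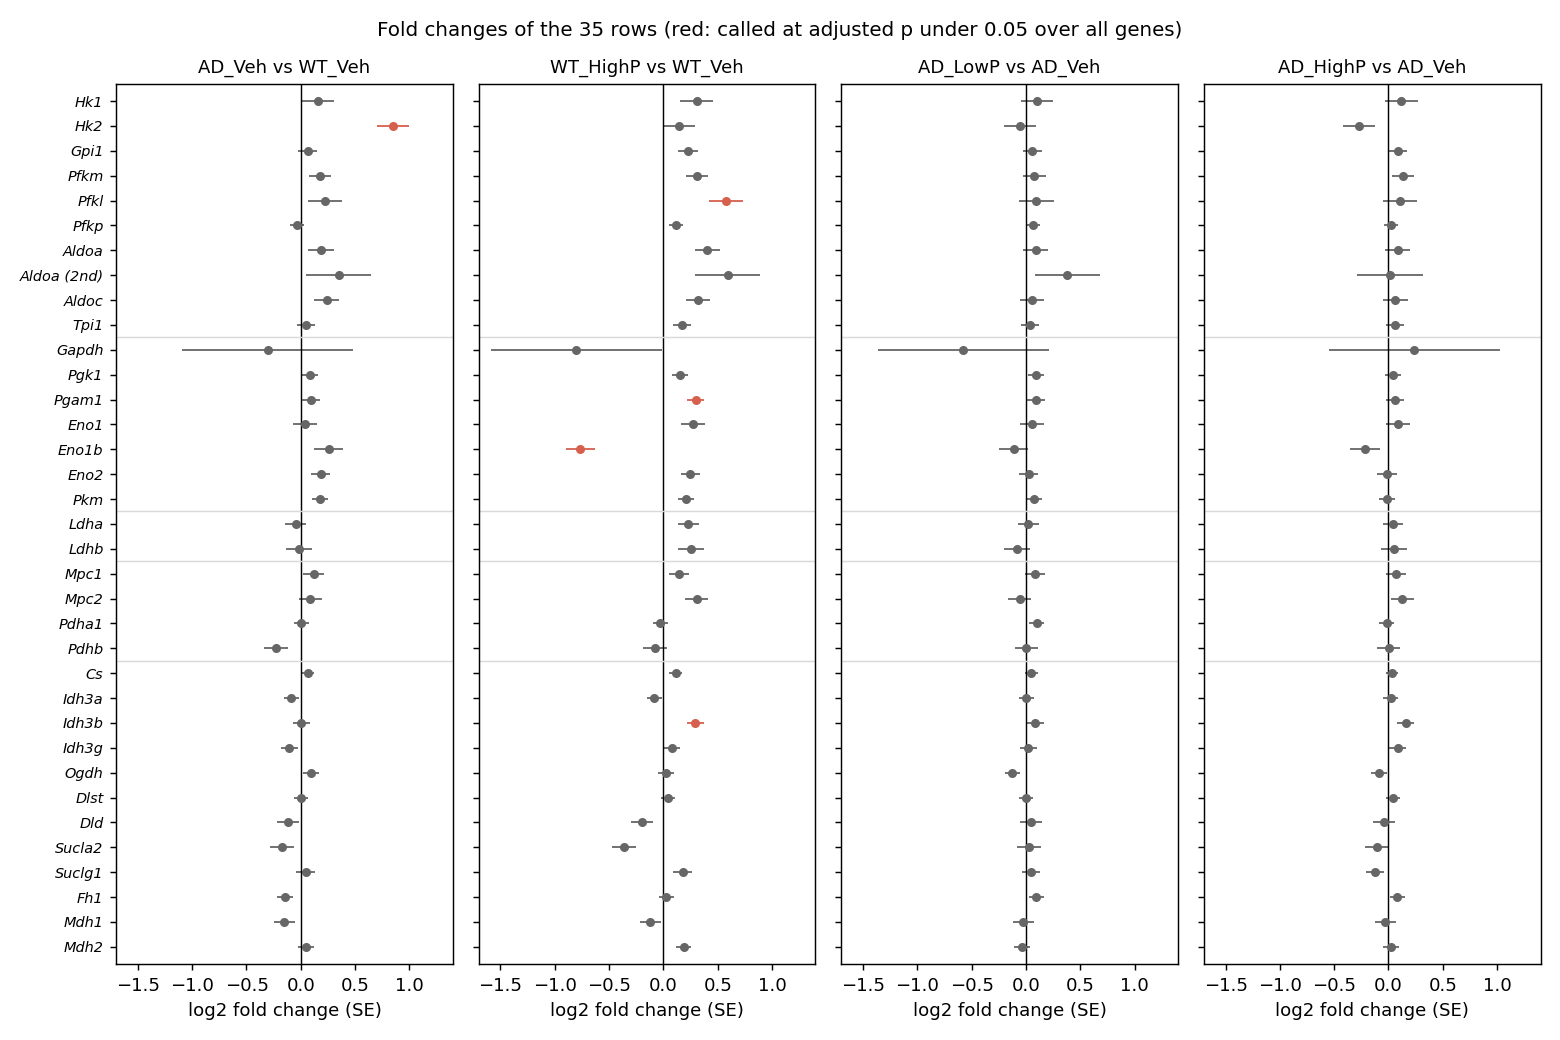
Log2 fold change of the 35 rows with bars of 1 SE in 4 comparisons, with called members in red. Hk2 is the 1 called row in AD_Veh against WT_Veh, 4 rows are called in WT_HighP against WT_Veh, and 0 in the low and high dose comparisons within AD mice.

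In WT_HighP against WT_Veh, Idh3b, Pfkl and Pgam1 rose and Eno1b fell. That is 4 of 35 rows (11.4%), where 3.17% of all tested genes were called: 3 higher against a background of 1.39%, and 1 lower against 1.79%. The median log2 fold change of the members was 0.17, against 0.00 over all tested genes, and 18 members had an unadjusted p under 0.05. Without overlap between the groups were 7 members that were higher (Pfkm, Pfkl, Aldoa, Pgam1, Pkm, Idh3b and Mdh2) and 1 that was lower (Eno1b), where 9.42% of all tested genes did not overlap (4.72% higher and 4.69% lower). By role the median log2 fold change was 0.31 in upper glycolysis, with 10 of 10 rows positive, 0.21 in lower glycolysis, 0.24 for lactate dehydrogenase, 0.06 for pyruvate entry and 0.04 in the citric acid cycle. After correction of each library for GC content these medians were 0.13 in upper glycolysis, again with 10 of 10 rows positive, -0.02 in lower glycolysis, 0.15 for lactate dehydrogenase, 0.16 for pyruvate entry and 0.08 in the citric acid cycle.

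The count over all tested genes also hung on single mice. In WT_HighP against WT_Veh 522 genes were called with all mice. There were 2724 without WT_Veh mouse 1, 64 and 88 without WT_Veh mouse 2 or 3, 0 without WT_Veh mouse 5 or WT_HighP mouse 3, and 1 to 3 without WT_Veh mouse 4 or WT_HighP mouse 1, 2 or 4. The share of reads on mitochondrial genes was 4.32 ± 0.310% in WT_HighP and 6.28 ± 0.325% in WT_Veh (SD, n = 5 each), without overlap. The part of this difference in the members' result was not tested.

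Pfkl, the liver type of phosphofructokinase, had 23.3, 24.6, 19.7, 23.0 and 20.9 FPKM in WT_HighP, against 19.5, 15.3, 18.7, 11.02 and 11.2 FPKM in WT_Veh. The lowest WT_HighP mouse was close to the highest WT_Veh mouse, and WT_Veh mice 4 and 5 were the lowest; these 2 females also had the lowest GC slopes of the group, -0.279 and -0.291. The log2 fold change was 0.58 (SE 0.16, adjusted p = 0.0498). Pfkl is at chr10:77986947-78010083 on the minus strand of mm10.

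Pgam1, the phosphoglycerate mutase of brain and most tissues, had 182, 177, 192, 204 and 192 FPKM in WT_HighP, against 164, 152, 162, 144 and 150 FPKM in WT_Veh. All WT_HighP mice were above all WT_Veh mice. The log2 fold change was 0.30 (SE 0.08, adjusted p = 0.0498). The gene lies on chr19:41911871-41918664, and it averaged 171 FPKM over all libraries, against 5.86 FPKM on 1 near-identical copy elsewhere.

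Idh3b, a subunit of the NAD-dependent isocitrate dehydrogenase of the citric acid cycle, had 41.8, 39.4, 40.7, 46.2 and 42.1 FPKM in WT_HighP, against 38.5, 34.3, 33.9, 33.0 and 31.5 FPKM in WT_Veh. The groups did not overlap, with WT_Veh mouse 1 the nearest. The log2 fold change was 0.29 (SE 0.08, adjusted p = 0.0456). The other subunits differed less: the log2 fold change was -0.08 for Idh3a (adjusted p = 0.450) and 0.08 for Idh3g (adjusted p = 0.537). The Idh3b share of the 3 subunits was 36.9 ± 0.983% in WT_HighP and 32.0 ± 3.38% in WT_Veh (SD, n = 5 each).

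Calls of these 3 members sat close to the threshold. Each lost its call when any 1 of 9 of the 10 mice was left out, and kept it only without WT_Veh mouse 1, with adjusted p between 0.0154 and 0.155 over these fits. After correction of each library for GC content, none was called: Idh3b had a log2 fold change of 0.38 (adjusted p = 0.105), Pfkl 0.30 (adjusted p = 0.338) and Pgam1 0.18 (adjusted p = 0.238).

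Eno1b, a second gene for the widespread enolase (chr18:48045335-48048378), moved the other way. It had 11.3, 12.7, 10.6, 14.3 and 14.2 FPKM in WT_HighP, against 22.6, 20.9, 24.9, 19.3 and 21.1 FPKM in WT_Veh. The groups were well apart, with the highest WT_HighP mouse below the lowest WT_Veh mouse. The log2 fold change was -0.77 (SE 0.13, adjusted p = 0.0263), and after GC correction it was -0.91 (adjusted p = 0.0213). The call was lost without WT_HighP mouse 1, 2 or 3 or WT_Veh mouse 4 or 5, at adjusted p of up to 0.0930, with the log2 fold change negative in each.

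Eno1b matches Eno1 over 1736 bp at 99.5% identity, so reads of the 2 genes can be exchanged and the level of Eno1b is uncertain. Eno1, the widespread enolase, averaged 162 ± 6.38 FPKM in WT_HighP and 135 ± 19.9 FPKM in WT_Veh (log2 fold change 0.27, SE 0.11, adjusted p = 0.118). The Eno1b share of the 3 enolases was 3.63 ± 0.501% in WT_HighP and 7.18 ± 0.537% in WT_Veh (SD, n = 5 each). In the AD groups Eno1b had 17.1, 22.7, 27.9, 34.6 and 31.8 FPKM in AD_Veh, 27.1, 21.1, 24.6, 23.0 and 24.8 in AD_LowP, and 20.5, 23.5, 21.5, 23.4 and 22.9 in AD_HighP. The AD_Veh mice were the most spread, and all 15 AD mice were above the WT_HighP mice.

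Aldoa, on its main row, averaged 459 ± 15.2 FPKM in WT_HighP and 348 ± 35.4 in WT_Veh (SD, n = 5 each; log2 fold change 0.40, SE 0.12) without overlap, and its adjusted p of 0.0533 was just outside the threshold. The second Aldoa row (ENSMUSG00000114515) gave the largest positive log2 fold change, 0.59 (SE 0.30, adjusted p = 0.200). That row had 1.13, 1.84, 1.66, 1.99 and 0.596 FPKM in WT_HighP, against 0.751, 0.680, 1.25, 0.666 and 0.455 FPKM in WT_Veh, and the groups overlapped. In the AD mice it had 1.82, 1.43, 1.38, 0.721 and 0.443 FPKM in AD_Veh, 0.801, 2.51, 1.51, 1.36 and 1.97 in AD_LowP, and 1.32, 0.656, 1.72, 2.03 and 0.363 in AD_HighP, which overlapped. Its log2 fold change was 0.38 in AD_LowP against AD_Veh (SE 0.30, adjusted p = 1), -0.36 in AD_HighP against AD_LowP (SE 0.30, adjusted p = 0.795) and -0.58 in the interaction of genotype and high P (SE 0.42, adjusted p = 0.760). Sucla2, the ADP-forming subunit of succinyl-CoA ligase, averaged 26.9 ± 1.47 FPKM in WT_HighP and 34.8 ± 4.67 in WT_Veh (log2 fold change -0.36, SE 0.11, adjusted p = 0.0619) and was not called. Mpc2, a subunit of the pyruvate carrier, averaged 5.93 ± 0.491 FPKM in WT_HighP and 4.72 ± 0.71 in WT_Veh (log2 fold change 0.31, adjusted p = 0.0785).

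The remaining rows of glycolysis were not called in any of the 6 contrasts. Hk1, the main hexokinase, averaged 43.7 ± 5.63 FPKM in AD_Veh, 47.98 ± 12.7 in AD_LowP mice and 47.3 ± 3.94 under high P in AD mice, with 48.3 ± 2.44 in WT_HighP and 39.8 ± 9.15 in WT_Veh (SD, n = 5 each). Its log2 fold change was 0.31 in WT_HighP against WT_Veh (SE 0.15, adjusted p = 0.190). Gpi1, which converts glucose 6-phosphate to fructose 6-phosphate, ranged over all libraries between 51.5 and 78.8 FPKM, and Pfkm, the muscle type of phosphofructokinase, between 78.0 and 119.7 FPKM. Pfkp, the platelet type, was steadier, at 16.8 to 21.0 FPKM, with log2 fold changes of -0.04 in AD_Veh against WT_Veh and 0.12 in WT_HighP against WT_Veh. Pgk1, phosphoglycerate kinase, which makes the first ATP of the route, ranged between 115.4 and 161 FPKM. Its log2 fold change was 0.08 in AD_Veh against WT_Veh (adjusted p = 0.762) and 0.15 in WT_HighP against WT_Veh (adjusted p = 0.189).

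Some mice stood low or high for many glycolytic rows at once; the examples were chosen after their values were seen. Among the AD_LowP mice, Aldoa had 331, 344, 390, 560 and 523 FPKM, Hk1 35.5, 35.1, 52.2, 64.8 and 52.4 FPKM, and Pfkl 13.4, 15.2, 20.3, 26.2 and 20.01 FPKM, so mice 1 and 2 were the lowest for each and mouse 4 the highest. The GC slopes of these 5 libraries were -0.282, -0.278, 0.0227, 0.159 and 0.158. In WT_Veh, mice 4 and 5 were the lowest for Tpi1 (132 and 131 FPKM, others 154 to 169), Eno1 (112 and 116 FPKM, others 137 to 157) and Ldha (57.6 and 59.6 FPKM, others 66.8 to 83.03). In the cycle these 2 mice were instead the highest of WT_Veh for Sucla2 (37.6 and 40.6 FPKM, others 28.7 to 35.4), Dld (37.2 and 38.4 FPKM, others 26.0 to 35.2) and Mdh1 (293 and 287 FPKM, others 215 to 281). The part of GC content in these mouse-to-mouse differences was not tested.

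The citric acid cycle rows other than Idh3b were not called in any contrast. Cs, citrate synthase, which starts the cycle, averaged 38.0 ± 2.27 FPKM in AD_Veh, 39.3 ± 1.19 in WT_HighP and 36.4 ± 1.94 in WT_Veh (SD, n = 5 each), with a log2 fold change of 0.06 between the vehicle groups (adjusted p = 0.774) and 0.11 under high P in wild-type mice (adjusted p = 0.206). Dld, the lipoamide dehydrogenase shared by the pyruvate and 2-oxoglutarate complexes, averaged 29.3 ± 2.40 FPKM in WT_HighP and 33.9 ± 4.90 in WT_Veh (log2 fold change -0.20, SE 0.10, adjusted p = 0.206). Mdh2 averaged 71.0 ± 1.82 FPKM in WT_HighP and 62.4 ± 2.51 in WT_Veh without overlap (log2 fold change 0.19, SE 0.07, adjusted p = 0.104), while Mdh1 averaged 240.4 ± 19.7 FPKM in WT_HighP and 263 ± 34.7 in WT_Veh (log2 fold change -0.12, SE 0.10, adjusted p = 0.428). Ogdh and Dlst, of the 2-oxoglutarate complex, had log2 fold changes of 0.02 and 0.04 in the same comparison. Pdha1, the alpha subunit of pyruvate dehydrogenase, averaged 36.96 ± 1.91 FPKM in WT_HighP and 37.8 ± 3.48 in WT_Veh (log2 fold change -0.03, adjusted p = 0.810).

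The GC content of a member's transcript and its fold change under high P in wild-type mice ran together. Spearman's rho over the 35 rows was 0.546, and -0.157 after the GC correction; this is a description over genes that share the same 10 libraries. In the comparison of AD_Veh with WT_Veh it was 0.618, and 0.348 after the correction. The 19 rows of glycolysis and lactate dehydrogenase had a median GC content of 53.45%, the 16 rows of pyruvate entry and the cycle 47.05%, and all tested genes 49.67%. The members' median log2 fold change in WT_HighP against WT_Veh was 0.17 before and 0.11 after the correction. The part of GC content in the difference between WT_HighP and WT_Veh was not tested further, and the slope on GC cannot be told apart from the treatment, since the slopes of the groups did not overlap.

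**Figure D4:**
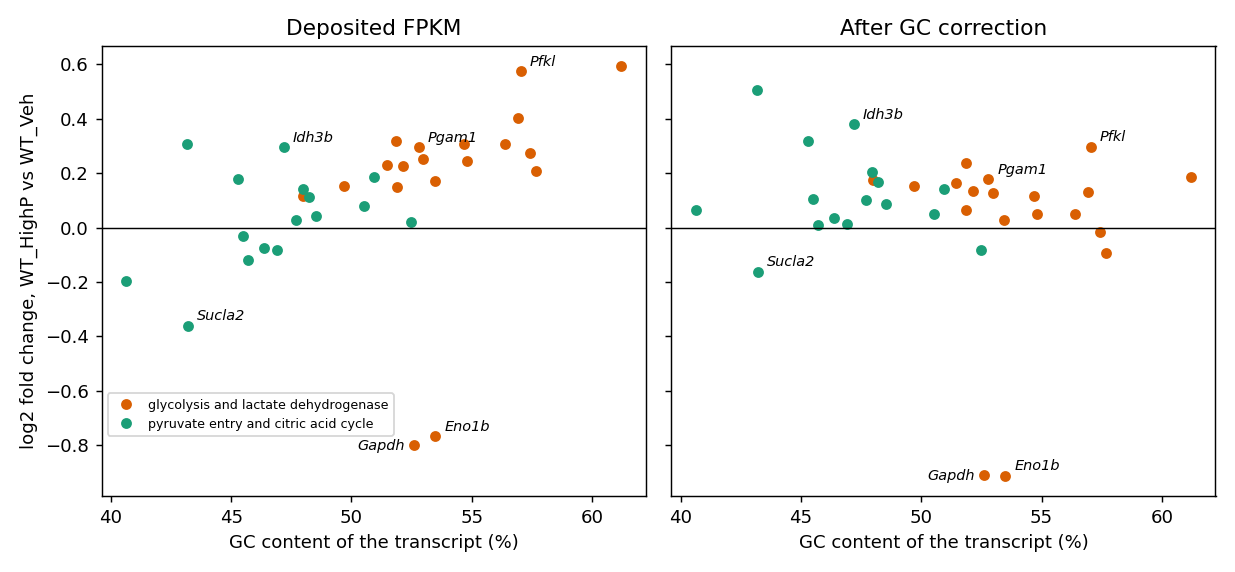
Log2 fold change of each member in WT_HighP against WT_Veh by the GC content of its transcript (in percent), before (left) and after (right) a GC correction of each library. The rows of glycolysis and lactate dehydrogenase have a median GC content of 53.45% and those of pyruvate entry and the cycle 47.05%, with overlapping ranges; Eno1b and Gapdh lie lowest in both.

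Marker levels in the WT groups were as follows. Of 13 microglia markers 0 were called and of 10 astrocyte markers 0, with astrocyte sums of 445 to 497 FPKM in WT_HighP against 461 to 517 in WT_Veh. Of 12 neuron markers 1 was called higher, with sums of 2327 to 3025 FPKM in WT_HighP against 2202 to 2804 in WT_Veh. Choroid plexus markers summed to 5.84 to 843 FPKM in WT_HighP and 3.13 to 62.3 FPKM in WT_Veh, with 0 of 3 tested markers called. Oligodendrocyte markers had positive log2 fold changes in 7 of 9 cases (median 0.35, 0 called), with sums of 600.4 to 1174 FPKM in WT_HighP against 475 to 1058 in WT_Veh. Red blood cell markers were positive in 4 of 4 cases (median 0.79, 0 called), with sums of 8.45 to 38.9 FPKM in WT_HighP against 2.47 to 20.1 in WT_Veh. The part of these cells in the members' result was not tested. Without the 5 libraries of high Ttr, 0 members were called in this comparison, and the median log2 fold change of the members was 0.19. With the 3 males of each group alone 0 members were called, and with the 2 females alone 10 were. The counts over all tested genes in these fits are not given here, so the 10 cannot be read as particular to the members.

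Of the 86 other pathway genes, 2 were higher in WT_HighP and 0 lower. Over all tested genes 3.17% were called in this comparison (1.39% higher and 1.79% lower). Pcx, pyruvate carboxylase, which in brain is known from astrocytes and refills the citric acid cycle, had 23.3, 21.8, 23.7, 23.6 and 19.9 FPKM in WT_HighP, against 17.2, 17.4, 13.6, 18.2 and 15.1 FPKM in WT_Veh, without overlap (log2 fold change 0.46, SE 0.11, adjusted p = 0.0356). Bsg, basigin, the chaperone of lactate carriers, averaged 198 ± 18.2 FPKM in WT_HighP and 154 ± 24.4 in WT_Veh (SD, n = 5 each; log2 fold change 0.37, SE 0.10, adjusted p = 0.0466). After the GC correction 0 of the 86 were called. The count over all tested genes in that fit is not given here, so this cannot be read as particular to these genes.

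In AD mice no member was called at either dose. In AD_LowP against AD_Veh 0 of 35 rows were called, with 0 at an unadjusted p under 0.05, and 0% of all tested genes were called. The median log2 fold change of the members was 0.05. Fitted on the females only it was 0.21, on the males only -0.08, and without AD_LowP mouse 4 it was 0.01. For 0 members did the groups not overlap, where 0.377% of all tested genes did not. The smallest unadjusted p, 0.0970, was that of Ogdh, the first subunit of the 2-oxoglutarate dehydrogenase complex (log2 fold change -0.12, SE 0.07, adjusted p = 1). It had 50.1, 47.3, 57.3, 48.4 and 50.5 FPKM in AD_LowP, against 54.3, 54.1, 59.1, 58.5 and 50.4 FPKM in AD_Veh. These values overlapped. Hk2 had a log2 fold change of -0.05 (SE 0.15, adjusted p = 1), while microglia markers were negative in 13 of 13 cases, with a median of -0.21 and 0 called. The same direction was seen in 9 of 9 oligodendrocyte markers (median -0.25) and 7 of 7 endothelial markers (median -0.17), with 0 called. Astrocyte markers were negative in 7 of 10 cases and neuron markers in 7 of 12, so the lower values were not particular to microglia markers.

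In AD_HighP against AD_Veh 0 of 35 rows were called, with 0 at an unadjusted p under 0.05, where 0.00608% of all tested genes were called. The median log2 fold change was 0.04, and 0 members were without overlap, against 1.35% of all tested genes. Idh3b had the smallest unadjusted p, 0.0531, with 38.8, 40.6, 40.5, 36.1 and 35.9 FPKM in AD_HighP, against 37.4, 36.9, 34.96, 29.8 and 32.9 FPKM in AD_Veh. The groups overlapped (log2 fold change 0.16, SE 0.08, adjusted p = 0.780). Hk2 gave the lowest log2 fold change, -0.27 (SE 0.15, unadjusted p = 0.0741, adjusted p = 0.780), from the values given above, where AD_HighP lay between the fifth AD_Veh mouse and the other 4. Microglia markers had negative log2 fold changes in 13 of 13 cases, with a median of -0.24 and 0 called. Astrocyte markers were negative in 7 of 10 cases (median -0.09) and oligodendrocyte markers in 6 of 9 (median -0.09). Endothelial markers were negative in 4 of 7 cases (median -0.08) and neuron markers in 5 of 12 (median 0.04). Of these other markers 0 were called. The part of any of these cells in the Hk2 value was not tested.

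Between the doses, AD_HighP against AD_LowP, 0 of 35 rows were called (0% of all tested genes), 0 were without overlap (0.9% of all tested genes), and the median log2 fold change was -0.00. Suclg1, a subunit of succinyl-CoA ligase, was the 1 member with an unadjusted p under 0.05 (0.0490). It had 12.05, 14.5, 12.8, 13.5 and 12.5 FPKM in AD_HighP, against 14.7, 16.8, 12.2, 14.7 and 16.0 FPKM in AD_LowP. The groups overlapped, and the log2 fold change was -0.17 (SE 0.08, adjusted p = 0.773). Across the dose series, Hk2 averaged 1.6 ± 0.41 FPKM on vehicle, 1.5 ± 0.27 FPKM on low P and 1.2 ± 0.082 FPKM on high P in the AD mice (SD, n = 5 each).

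The interaction, the difference between the high P effect in AD and in WT mice, called 0 of 35 rows (0% of all tested genes). An unadjusted p under 0.05 was found for 5 members: Eno1b with a log2 difference of 0.55 (SE 0.19, unadjusted p = 0.00759), and Pfkl, Suclg1, Pkm and Eno2 with negative ones. Each of these had an adjusted p of 0.71. The members' median was -0.14, against -0.00 over all tested genes. It was -0.06 with quantile normalization and -0.08 after the GC correction. Of the upper glycolysis rows, 10 of 10 were negative both in the uncorrected fit (median -0.22) and after the GC correction (median -0.14). This contrast uses the AD_HighP, AD_Veh, WT_HighP and WT_Veh libraries again, so it shares them with the comparisons above.

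Gapdh, the glyceraldehyde-3-phosphate dehydrogenase used as a reference in many assays, was listed far below its neighbours in the pathway, Tpi1 and Pgk1, which averaged 159 and 137 FPKM. It lay between 0.671 and 1.77 FPKM in 22 libraries and far above that in 3. By group it had 1.23, 1.37, 18.7, 0.774 and 0.671 FPKM in AD_Veh, 1.23, 0.932, 1.12, 1.27 and 1.28 in AD_LowP, and 1.02, 1.24, 25.5, 1.26 and 1.25 in AD_HighP. The WT mice had 0.958, 0.979, 1.29, 1.62 and 1.54 FPKM in WT_HighP and 1.48, 26.0, 1.23, 1.77 and 0.792 FPKM in WT_Veh. The 3 high libraries, AD_Veh 3, AD_HighP 3 and WT_Veh 2, lie in 3 groups.

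In those 3 libraries 1264, 1769 and 1784 reads fell on Gapdh, against 47 to 124 in the other 22. Its transcript has 78 near-identical copies elsewhere (at least 95% identity over at least 200 bp), of which 76 were above 0. Together these copies held 418 to 809 reads per library, and 557, 634 and 467 in AD_Veh 3, AD_HighP 3 and WT_Veh 2. The level of Gapdh in this table is uncertain for both reasons. The SE of its log2 fold changes was 0.79, and these were -0.30 in AD_Veh against WT_Veh (adjusted p = 0.938), -0.80 in WT_HighP against WT_Veh (adjusted p = 0.532), -0.57 in AD_LowP against AD_Veh (adjusted p = 1), 0.24 in AD_HighP against AD_Veh (adjusted p = 0.948), and 0.81 in AD_HighP against AD_LowP (adjusted p = 0.820). In the interaction of genotype and high P the log2 difference was 1.04 (SE 1.12, adjusted p = 0.832).

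**Figure D5:**
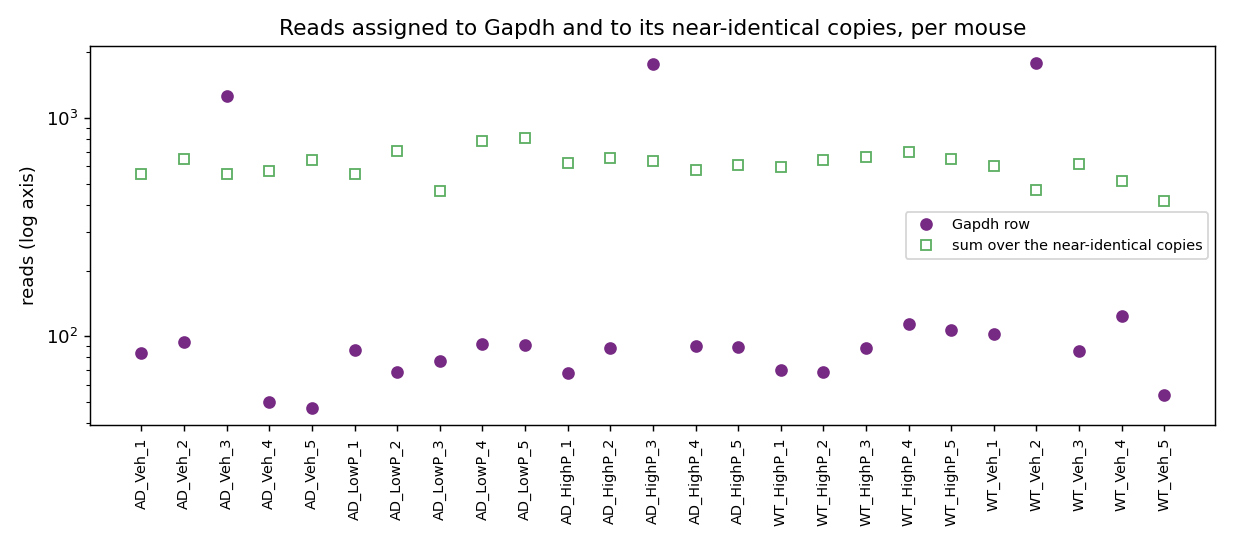
Reads (log axis) on the Gapdh row and summed over its 78 near-identical copies in each of the 25 mice. The Gapdh row holds 47 to 124 reads in 22 libraries and over 1000 in AD_Veh 3, AD_HighP 3 and WT_Veh 2, while the copies hold 418 to 809.

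In all, 12 of the 35 rows have a near-identical copy elsewhere. Mpc1, the other subunit of the pyruvate carrier, averaged 9.01 FPKM, while its copy Mpc1-ps on chromosome 12, of 330 bp, averaged 84.8 FPKM, so most signal of this sequence per length was assigned to the copy. Tpi1, triosephosphate isomerase, averaged 159 FPKM beside 20.8 FPKM on its copy. For the other 23 rows, Hk2, Pfkl and Idh3b among them, no such copy was found.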

How the data were processed

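RNA of mouse cortex was sequenced in 25 animals (5 per group), in strand-specific libraries of poly(A)-selected RNA, as the labels' protocols state. Per the submitters' processing notes, alignment was to mm10 by HISAT2; which counting tool and annotation followed is not given there. FPKM per gene, as computed by the authors, makes up the deposited table, with gene lengths and coordinates, per the file headers. FPKM times length gave whole multiples of 1 read for 100% of nonzero values (tolerance 0.01), so that reads per library (15518358 to 17698222) were recovered; intervals of such reads would cover counting error only.

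The 16450 genes that reached 0.5 FPKM in 5 or more libraries were tested. limma 3.58.1 (R 4.3.3) fitted log2(FPKM + 0.5) of the 25 libraries by group, with variance moderated along an intensity trend (20 residual degrees of freedom). On that scale the change of low genes is understated. The 6 contrasts were tested two-sided, with Benjamini-Hochberg adjustment over all tested genes of a contrast and calls at an adjusted p under 0.05; the test was checked on simulated data. The median SE was 0.094 for members and 0.15 for all tested genes. Each p-value sets a difference of group means against the spread between mice within groups, which was pooled over all groups.

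The members and the lists of other pathway genes and cell markers were chosen with earlier results of these data known. Per-mouse values were given for called members and, in each contrast, for the largest rise, largest fall and smallest p, and of the other pathway genes those called were named. GC correction removed from each library a natural spline (4 degrees of freedom) of its deviations on transcript GC content, known for 99.9% of tested genes. Near-identical copies were found by blastn among annotated transcripts. Alternatives were other pseudocounts, filters, scalings and weights, voom on recovered reads, sex, a replicate block, and omission of each mouse; omission of high-Ttr libraries was planned too, and each sex alone was added after the data were seen.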

Additional observations from a re-analysis of the deposited data

Results flagged for a closer look

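Dixon's test was run on the 5 mice of each group for every member, 175 groups in all, and 8 held a mouse that stood apart from the other 4; chance flags about 1 in 20 such groups. Of these, 3 concern Gapdh, at 18.7 FPKM in AD_Veh 3 (others 0.671 to 1.37), 25.5 FPKM in AD_HighP 3 (others 1.02 to 1.26) and 26.0 FPKM in WT_Veh 2 (others 0.792 to 1.77). AD_HighP 1 was the highest of its group for 4 members of glycolysis, with Gpi1 at 70.6 FPKM (others 60.0 to 62.8), Aldoa at 473 FPKM (others 401 to 411), Tpi1 at 171 FPKM (others 157 to 159) and Eno1 at 161 FPKM (others 142 to 143). That library also had the highest GC slope of AD_HighP, 0.176, and the fewest assigned reads of all, 15518358. It was among the libraries of high Ttr as well, with Ttr at 788 FPKM. The part of any of these was not tested. Dlst in WT_HighP 2 was the lowest of its group, at 10.8 FPKM (others 12.2 to 12.5).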

How the results depend on the processing

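Hk2 in AD_Veh against WT_Veh kept its call in 40 of 41 alternatives (log2 fold change 0.64 to 1.29) and lost it with the females alone (adjusted p = 0.216). Of the 41, 10 left out a mouse of these 2 groups, and the call was kept in each (adjusted p up to 0.00318). Leaving out a mouse of another group changes only the shared spread and not the Hk2 estimate. The count of members called in WT_HighP against WT_Veh, 4, depended on the setting: it was 2 with a pseudocount of 0.1, 1 with quantile normalization or the GC correction, 13 with array weights, 8 with the 2 groups fitted alone, 10 in females, and 0 with no filter, without high-Ttr libraries or in males. With 1 mouse left out it lay between 0 and 12, while the count over all tested genes lay between 0 and 2724. For the other settings in this paragraph the count over all tested genes is not given here. The counts of members and of other pathway genes there stand without a background. The member count was 12 without WT_Veh 1 and 0 without WT_Veh 4 or 5 or WT_HighP 1, 2 or 3. Leaving out WT_HighP 4 or 5 or WT_Veh 2 or 3 gave 1. Mice of other groups enter through the shared spread: without AD_HighP 1, 2, 3 or 4 or AD_Veh 2 or 3 the count was 1, without AD_Veh 4 or AD_HighP 5 it was 2, and without AD_LowP 1 it was 7. The other pathway genes of that comparison, 2, became 4 with a filter of 1 FPKM or sex as a covariate, 1 with quantile normalization, 15 with array weights, 5 with the 2 groups alone, 8 in females and 0 with no filter, the GC correction, no high-Ttr libraries or males, and 0 to 12 with 1 mouse left out. In AD_Veh against WT_Veh they became 1 with the 2 groups alone and 0 in females (2 to 3 with 1 mouse left out), from 3. In females 1 member and 2 other genes were called in AD_LowP against AD_Veh, and in males 2 other genes in AD_HighP against AD_LowP. With the replicate block, 1 member was called in WT_HighP against WT_Veh (1 with the GC correction as well, and then 0 other genes). Same-numbered mice had a median correlation of 0.0211 (-0.379 to 0.273 over 50 pairs), against 0.0085 for other numbers. Mice 1, 2 and 3 of each group were male and mice 4 and 5 female, so the block also takes up sex. Whether the numbers stand for anything else was not tested. The cause of these changes was not tested. No direction of a called result reversed. Reads of 42 to 185 limit Hk2. With 5 mice a group, changes well above the median SE of 0.094 can be missed. Aldoa on its main row, with a log2 fold change of 0.40 in WT_HighP against WT_Veh, was not called.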
